A study of Mus musculus with 47 samples.

Results

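The comparison is of native muscle differentiation between 48 and 120 h in the mouse myoblast line C2C12 iMyoD1, without doxycycline (dox). Its members are 6 of the 47 RNA-seq libraries of the series, the 3 whole-culture libraries at 48 h and the 3 whole-culture (bulk) libraries at 120 h that received vehicle in place of dox. C2C12 iMyoD1 is a polyclonal line that carries a Halo- and V5-tagged MyoD1 transgene, inserted by PiggyBac transposition, under a dox-responsive promoter, and all groups used here carry it, the controls included. Cells were moved from growth medium to a low-serum medium with insulin, transferrin and selenium at 0 h, and the medium was not replaced afterwards. Set beside them were the same line at 0 and 24 h without dox, 3 libraries each, and at 48 and 120 h with dox, 3 libraries each. Also used were 3 myoblast-enriched and 3 myotube-enriched libraries at 120 h without dox, which were made by mild trypsin and a 40 µm strainer, with the flow-through taken as myoblast-enriched and the retained material as myotube-enriched. The labels call the replicates biological replicates, with no statement of separate thaws or days, so the p-values measure the spread between these cultures.

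When growth factors are withdrawn, myoblasts leave the cell cycle, switch on myogenin and fuse into multinucleated myotubes. Myotubes then assemble sarcomeres, and MEF2 factors, which act together with MyoD1 and myogenin, take part in this later step. A fraction of C2C12 cells does not fuse and stays mononucleated beside the myotubes. Skeletal muscle first uses embryonic and neonatal myosin heavy chains, and adult fast and slow chains follow with maturation. In whole cultures, more myotubes and more RNA of a gene in each myotube cannot be told apart.

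The total of estimated counts per library was between 18598297 and 24097187 at 48 h, between 23360652 and 24706845 at 120 h, and between 21159855 and 31387633 over the 6 fraction libraries. Levels are given as CPM, counts scaled to the library size with TMM factors. Of the markers of a muscle culture, Myod1 was at 375 ± 1.48 CPM at 48 h (SD, n = 3) and Pax7 between 116 and 121 CPM. The 9 defining markers of C2C12 cells and fibroblasts summed to between 5307 and 5665 CPM at 48 h. At 120 h they summed to between 2328 and 3577 CPM. Of 8 tested, 3 were lower past the thresholds given below, and Thy1 had at most 3 counts in all 6 libraries. Of 9 adipocyte markers 7 had at most 3 counts in every one of the 6 libraries, and of 11 macrophage and blood markers 5 did, Ptprc and Adgre1 among them. The same held for 3 of 10 osteoblast and chondrocyte markers, for 2 of 10 neural and Schwann markers and for 2 of 9 endothelial and smooth muscle markers. The summed level of the adipocyte list was between 34.5 and 38.0 CPM at 48 h and between 19.5 and 20.3 CPM at 120 h. Its most abundant gene, Cebpa, went from between 28.4 and 30.8 CPM to between 10.2 and 11.4 CPM. The rest of that list went from between 6.17 and 7.24 CPM to between 8.46 and 9.36 CPM. The macrophage list summed to between 6.63 and 8.12 CPM at 48 h and to between 3.50 and 5.72 CPM at 120 h. The osteoblast list summed to between 149 and 151 CPM at 48 h and to between 101 and 110.3 CPM at 120 h, where Bglap, listed at 0 at 48 h, had between 0.560 and 0.673 CPM. Its most abundant gene, Runx2, went from between 49.6 and 51.8 CPM to between 66.0 and 76.6 CPM. The rest of that list went from between 97.6 and 100.2 CPM to between 33.5 and 39.5 CPM. The neural list summed to between 32.0 and 36.5 CPM at 48 h and to between 14.8 and 17.5 CPM at 120 h, and the endothelial and smooth muscle list without desmin (Des), a muscle gene that it also holds, to between 1.01 and 1.49 CPM and to between 0.625 and 1.03 CPM. The part of these cell types in the results was not tested.

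The 3 whole-culture libraries at 120 h stood apart from the 48 h and the fraction libraries in a property that is not a gene group. Relative to the 48 h mean, the 990 genes with a transcript GC content under 42% had a median log2 difference between 0.34 and 0.66 in them, and the 151 genes with a GC content of at least 62% had a median between -2.13 and -1.38. In the fraction libraries, which are from the same time, the corresponding medians were between -0.02 and 0.20 and between -0.48 and 0.01. Genes with transcripts under 800 bases were lower in the 120 h whole cultures, by medians between -0.71 and -0.57 in each library. In the myotube-enriched libraries these medians were between -0.40 and -0.06, and in the myoblast-enriched libraries between -0.31 and 0.03. Replicate 3 had the largest shift with GC content and replicate 1 the smallest. The 120 h whole cultures with dox had the same direction, with medians between -2.26 and -1.82 for a GC content of at least 62%. All whole cultures at 120 h carry this shift, so for a single gene it cannot be told apart from the change with time. For that reason 2 further fits are used beside the main one, and their values are given where they bear on a result. One is the fit with the trend over GC content and length removed from each library, called the GC and length offset. The other sets the 6 fraction libraries in place of the 120 h whole cultures, and it uses the same 48 h libraries as the main fit. It takes them as 6 separate libraries of 1 group, although they are 2 materials of 3 replicate numbers, and by this construction the difference between the materials counts as error. In an alternative added after seeing the data the 2 fractions of each number were summed to 3 libraries, and its values are given as those with the summed fractions.

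**Figure D1:**
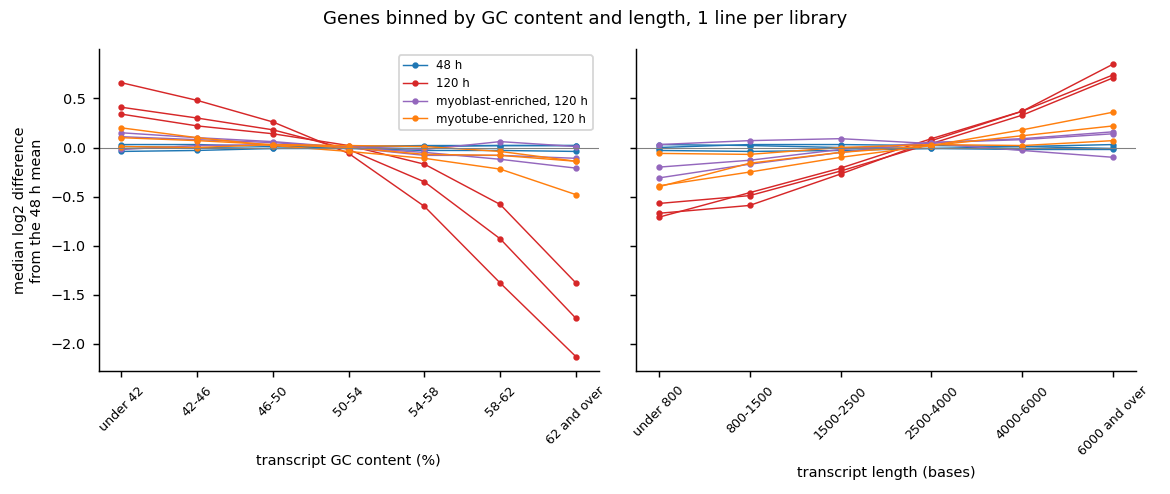
Median log2 difference from the mean of the 48 h libraries (vertical axis) for genes in bins of transcript GC content (left) and transcript length (right), 1 line per library. The 3 lines of the 120 h whole cultures run from between 0.34 and 0.66 at a GC content under 42% to between -2.13 and -1.38 at 62% and over, while the 6 fraction libraries at 120 h stay between -0.48 and 0.20 in these bins.

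Of 13786 genes tested with edgeR's quasi-likelihood test, 1614 (11.7%) were higher and 2495 (18.1%) lower at 120 h with an adjusted p below 0.05 and a fold change over 2, together 29.8% of the genes. In what follows a gene that rose or fell passed both thresholds. The adjusted p alone was below 0.05 for 67.1% of the genes. The median log2 fold change over all tested genes was -0.03, and 73.1% of them had no overlap between the 3 and 3 libraries. With the GC and length offset 1102 of 13755 genes (8.01%) rose and 1793 (13.0%) fell. With the fractions in place of the whole cultures 320 of 14308 genes (2.24%) rose and 161 (1.13%) fell, together 3.36%. With the summed fractions 607 of 14435 (4.21%) rose and 369 (2.56%) fell, together 6.76%. Of the named genes that rose or fell in whole cultures, 13 of 105 tested were called in the same direction with the fractions in place and 1 in the other, and with the summed fractions 35 of 106 and 2 were. The number of calls in the fractions thus depends on how the libraries are combined. Where a transcript was annotated, the genes that rose in whole cultures had a median GC content of 47.1% and a median length of 4453 bases, and those that fell had 55.1% and 1990.0 bases, against 50.2% and 2767 bases over all tested genes. The strand setting of the count is not stated, and reads of a gene and of a gene that overlaps its exons on the opposite strand cannot then be told apart. Among the genes described below this concerns Mef2a, Mef2d, Myh1, Myh2, Myh7, Myl2, Neb, Ttn, Ryr1, Cacna1s, Casq1, Atp2a1, Ckm, mt-Co1, Cox6a2, Fabp3, Ccnd1, Ccnd2, Fn1, Ddit3, Cebpb, Txnip, Fbxo32, Igf2 and Mcam, and the list counts include such genes unless stated otherwise.

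Among the myogenic regulators the MEF2 gene Mef2c had the highest log2 fold change. Mef2c (ENSMUSG00000005583, GRCm38 chromosome 13 from 83504034 to 83667080), a MADS-box factor of muscle genes, was at 6.52, 9.21 and 6.10 CPM at 48 h and at 278, 256 and 279.6 CPM at 120 h. The groups were far apart, a 37.5-fold rise (log2 fold change 5.23, standard error (SE) 0.16, edgeR adjusted p = 1.2e-07). It was listed at 0 at 0 h and at 0.0639 ± 0.0826 CPM at 24 h (SD, n = 3). In the fractions its mean was 12.7 ± 11.1 CPM in the myoblast-enriched and 112 ± 100.4 CPM in the myotube-enriched libraries (SD, n = 3 each). The log2 fold change from 48 h was 3.09 with the fractions in place, without a call (SE 1.15, edgeR adjusted p = 0.11), and 3.00 with the summed fractions, with a call (SE 0.59, edgeR adjusted p = 0.012). Of its relatives, Mef2a, whose exons are overlapped on the opposite strand, went from between 373 and 383 CPM to between 865 and 1004 CPM (log2 fold change 1.28), and Mef2d had a log2 fold change of 0.49, under the fold threshold.

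Myogenin, the factor that marks commitment to differentiation, was already at 1630.0, 1599 and 1649 CPM at 48 h. At 120 h Myog had 2741, 2170.1 and 1878 CPM, above every 48 h library, with a log2 fold change of 0.48 (SE 0.13, edgeR adjusted p = 0.0087). Set against the fractions its log2 fold change was -0.43 (edgeR adjusted p = 0.46). Myod1 (GRCm38 chromosome 7 from 46376474 to 46379099) had 377, 374 and 375 CPM at 48 h and 298, 295 and 227 CPM at 120 h. Its log2 fold change was -0.45 (edgeR adjusted p = 0.0053), and 0.47 with the GC and length offset (edgeR adjusted p = 3.1e-04). Its transcript has a GC content of 58.9%. Myf5, the early determination factor, fell from between 25.9 and 30.1 CPM to between 5.74 and 7.73 CPM, and by 2.12 on the log2 scale with the offset. With the summed fractions Myf5 had a log2 fold change of -0.27, without a call (edgeR adjusted p = 0.23). Pax7, the satellite cell factor, was lower by 0.87 on the log2 scale and had -1.12 with the offset, past the fold threshold, and -0.58 with the fractions in place. Over the list of muscle regulators 6 of 19 tested members rose and 3 fell, with a median log2 fold change of 0.48 against -0.03 over all genes. With the offset 4 rose and 4 fell, and with the fractions in place 1 rose and 1 fell, with a median of -0.26 (3 and 1 with the summed fractions). Myf6, the regulator of late fibres, was not tested in whole cultures, since it had between 0.0877 and 0.114 CPM at 48 h and between 0.384 and 0.659 CPM at 120 h. In the myotube-enriched libraries it was at 1.17, 1.06 and 5.36 CPM, so that replicate 3 sets their mean. With the fractions in place it was tested and had a log2 fold change of 3.84 (SE 1.06, edgeR adjusted p = 0.049).

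Most genes of the inhibitors of these factors fell. Id proteins bind E proteins and hold MyoD1 inactive, and 10 of 14 tested members of the list of Id, E and related repressor genes fell, with a median log2 fold change of -1.91. Id1 went from 45.3, 44.1 and 43.7 CPM to 12.4, 9.75 and 10.4 CPM (log2 fold change -2.02, SE 0.11, edgeR adjusted p = 1.1e-06). Id3 went from between 43.8 and 47.7 CPM to 16.6, 6.77 and 4.67 CPM, and Id2 from between 71.2 and 72.2 CPM to between 16.7 and 24.1 CPM. The Notch target Hes1 was at 102, 98.2 and 97.6 CPM at 48 h and at 20.1, 17.7 and 16.1 CPM at 120 h (log2 fold change -2.46). Among the E proteins Tcf3 fell by 2.08 on the log2 scale, while Tcf12 had a log2 fold change of 0.79. The single member that rose was Snai2, a zinc-finger repressor, by 1.34. With the offset 7 of 14 members fell, and with the fractions in place 1 did, with a median of -0.43, and with the summed fractions 4. Id3 there had a log2 fold change of 0.21. It was higher in the myoblast-enriched fraction (73.6 ± 1.45 CPM) than in the myotube-enriched fraction (34.0 ± 1.68 CPM; SD, n = 3 each), and the log2 fold change between fractions was -1.10 with the replicate number as a block (edgeR adjusted p = 0.0091).

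Few fusion genes were called. Over 28 tested members 3 rose and 4 fell, shares at or below those of all genes, and the median log2 fold change was 0.23. It was -0.01 with the offset and 0.03 with the fractions in place, where 1 rose and none fell. Mymk, which encodes the fusion protein myomaker, had 931, 863 and 804 CPM at 48 h and 1458, 1418 and 1153 CPM at 120 h, a log2 fold change of 0.64 that stayed under the fold threshold and was 1.10 with the offset, past that threshold, and -0.37 with the fractions in place. Mymx (GRCm38 chromosome 17 from 45600971 to 45602102), its short partner myomixer, was at 283, 281 and 271 CPM at 48 h and at 70.4, 57.8 and 51.1 CPM at 120 h. All libraries at 120 h were below those at 48 h, a 4.64-fold fall (log2 fold change -2.21, SE 0.12, edgeR adjusted p = 8.5e-07). The log2 fold change was -1.10 with the offset and -0.61 with the fractions in place, and the Mymx transcript is short, with a GC content of 57.9%. Both fusion genes had been near 0 at 24 h, at 1.89 CPM for Mymk and 0.724 CPM for Mymx. Cdh15, the muscle cadherin, fell from between 445 and 481 CPM to 278, 201 and 141 CPM, but had log2 fold changes of -0.37 with the offset and -0.91 with the fractions in place, both without a call, and its transcript has a GC content of 59.9%. Tmem182, a muscle membrane protein gene, rose from 167, 185 and 175 CPM to 754, 797 and 983 CPM, but had a log2 fold change of 0.03 with the summed fractions (edgeR adjusted p = 0.94).

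The myosin heavy chains changed in composition. Embryonic Myh3 (GRCm38 chromosome 11 from 67078300 to 67102291) had 2522, 2379 and 2243 CPM at 48 h and 1823, 1802 and 1543 CPM at 120 h. Its log2 fold change was -0.46 (SE 0.10, edgeR adjusted p = 0.0030), and 0.01 with the fractions in place. Adult, neonatal and slow chains rose. Fast Myh1 went from 114, 117 and 108 CPM to 739, 716 and 575 CPM (log2 fold change 2.59, SE 0.11, edgeR adjusted p = 4.4e-07). Neonatal Myh8 went from between 23.8 and 31.0 CPM to between 193 and 231 CPM, a 7.85-fold rise. Fast Myh4 was at 3.03, 3.34 and 3.38 CPM at 48 h and at 48.2, 51.2 and 29.7 CPM at 120 h, a 13.3-fold rise (log2 fold change 3.73, SE 0.22). Fast Myh2 rose 5.88-fold and slow Myh7 2.25-fold. Myh1, Myh2, Myh4, Myh7 and Myh8 had log2 fold changes between 0.93 and 3.24 with the offset, where Myh7 lost its call. Values with the fractions in place were between 1.48 and 3.63, and of these 5 genes Myh4 alone passed the test (edgeR adjusted p = 0.048), with adjusted p between 0.087 and 0.17 for the other four. With the summed fractions all but Myh7 (edgeR adjusted p = 0.054) passed, with log2 fold changes between 1.93 and 3.59. In all, 6 of 12 tested heavy-chain genes rose and none fell, and with the offset 4 rose and 1, the non-muscle chain gene Myh10, fell by 1.31 on the log2 scale. Exons of Myh1, Myh2 and Myh7 are overlapped by genes on the opposite strand, and those of Myh3, Myh4 and Myh8 are not.

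On a scale per transcript length (CPM per kb), Myh3 made up 92.5% ± 0.414 of the sum of 6 sarcomeric chains at 48 h and 62.0% ± 1.28 at 120 h (SD, n = 3 each). The share of Myh1 went from 4.39% ± 0.180 to 24.3% ± 0.563, that of Myh8 from 1.05% ± 0.132 to 7.60% ± 0.411, that of Myh7 from 1.84% ± 0.153 to 3.78% ± 0.551 and that of Myh4 from 0.127% ± 0.0142 to 1.53% ± 0.277. In each of these the 3 and 3 libraries did not overlap, and the two-sided exact permutation p was 0.10, the smallest that 3 against 3 libraries allow. The sum itself was 451, 429 and 402 CPM per kb at 48 h and 497, 484 and 404 CPM per kb at 120 h, and these groups overlapped. The 6 transcripts have similar lengths and GC contents, between 52.7% and 56.2%. In the fractions the sum was between 198 and 269 CPM per kb in the myoblast-enriched and between 724 and 943 CPM per kb in the myotube-enriched libraries. The share of Myh3 was 80.1% ± 9.70 in the former and 75.1% ± 2.95 in the latter (SD, n = 3 each, two-sided exact permutation p = 0.50).

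**Figure D2:**
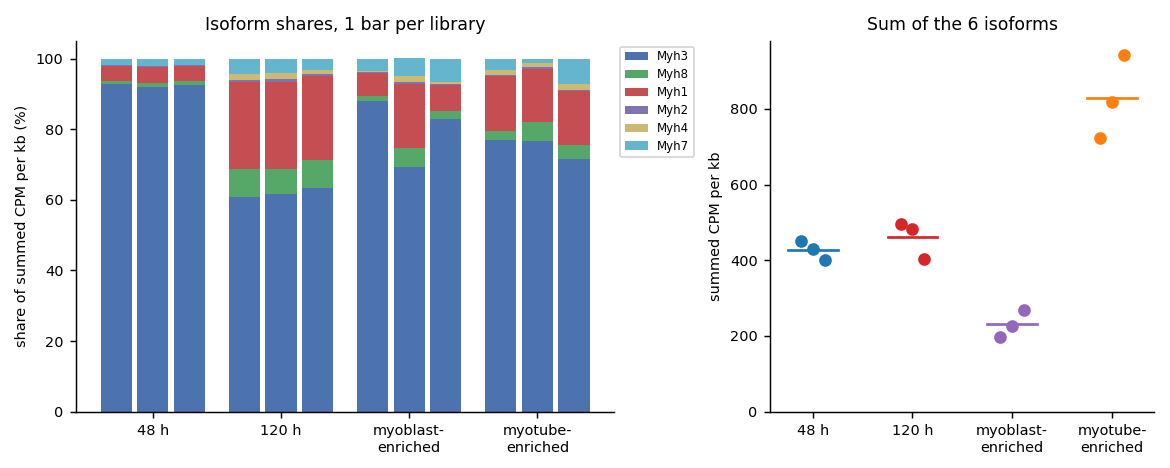
Left, share (%) of 6 sarcomeric myosin heavy chains in their summed level per kb of transcript, 1 stacked bar per library, with the blue base as Myh3 and the red segment as Myh1. Right, the summed level in each library (points) and the group mean (line): Myh3 takes 92.0% to 92.8% at 48 h and 60.9% to 63.4% at 120 h, while the sum lies between 402 and 497 CPM per kb in both groups.

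The promoter of Myh4 is shown because this gene had the largest rise among the heavy chains. The sequence is that of RefSeq on GRCm38.p6, the 250 bases before the annotated start, chr11:67237562-67237811 on the plus strand, and the capitals mark the E-box CAGCTG, the motif to which MyoD1 and myogenin bind. Myoz2, a Z-disc gene described next, is shown beside it at chr3:123034988-123035237 on the minus strand, with a match to the MEF2 motif, here CTA and TAG with any 4 bases between them, and an E-box in capitals.
Myh4: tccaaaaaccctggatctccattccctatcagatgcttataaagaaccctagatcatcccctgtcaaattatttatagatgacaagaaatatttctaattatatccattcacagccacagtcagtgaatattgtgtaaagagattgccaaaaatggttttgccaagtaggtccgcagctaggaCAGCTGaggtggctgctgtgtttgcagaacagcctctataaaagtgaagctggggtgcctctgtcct
Myoz2: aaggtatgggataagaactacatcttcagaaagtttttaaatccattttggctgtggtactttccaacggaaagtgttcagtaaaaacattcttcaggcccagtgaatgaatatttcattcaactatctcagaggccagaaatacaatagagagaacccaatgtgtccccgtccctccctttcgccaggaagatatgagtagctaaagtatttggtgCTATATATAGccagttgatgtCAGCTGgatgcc
Both strands were searched, and the motifs do not overlap in these sequences. CAGCTG was found in the promoters of 3979 of 27025 genes (14.7%), of 10 of 32 Z-disc and M-band genes, of 8 of 21 excitation-contraction coupling genes and of 2 of 12 heavy-chain genes. The MEF2 motif was found in 1000 genes (3.70%) and in 10 of 32 Z-disc and M-band genes, and in none of the 12 heavy-chain and 16 thin-filament genes. These matches are a description of the letters in these windows only.

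Z-disc and M-band genes, which anchor thin and thick filaments, rose in part. Of 39 tested members 15 rose and 2 fell, 32 had a positive log2 fold change, and the median was 0.68 against -0.03 over all genes. Without members overlapped on the opposite strand it was 10 up and 2 down of 28, with a median of 0.61. Myoz2, the gene of the calsarcin that links calcineurin to the Z-disc, went from 38.2, 37.5 and 36.8 CPM to 172, 188 and 210.2 CPM (log2 fold change 2.35, SE 0.10, edgeR adjusted p = 3.9e-07). Myom2, which encodes an M-band crosslinker, went from 437, 452 and 437 CPM to 1808, 1564 and 1515 CPM, a 3.70-fold rise. Myot, the gene of the Z-disc protein myotilin, rose from between 1.26 and 1.90 CPM to between 8.07 and 9.71 CPM. Ttn, the giant spring of the sarcomere, went from 669.9, 719 and 608 CPM to 5601, 4423 and 6888 CPM, a log2 fold change of 3.09 that was 1.47 with the offset, its transcript being among the longest. Pdlim7 fell from between 286 and 316 CPM to 107, 81.1 and 48.8 CPM, and its transcript has a GC content of 61.1%. Obsl1 fell by 1.51 on the log2 scale and had -0.47 with the offset. With the offset 17 of 39 members rose and 1 fell, with a median of 0.91, and with the fractions in place 1 rose, with a median of 0.38, and with the summed fractions 7.

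Few thin-filament genes passed both thresholds. Of 20 tested members 14 had an edgeR adjusted p below 0.05, and of these 3 rose (Neb, Cap2 and Lmod3) and 1 fell (Lmod1). The median log2 fold change over the 20 was 0.04 and 0.48 with the offset, and none rose or fell with the fractions in place (median 0.20). Acta1, skeletal actin, was at 6100.4, 5665 and 5571 CPM at 48 h and at 4413, 3106 and 1862 CPM at 120 h. That log2 fold change of -0.88 was -0.25 with the offset (edgeR adjusted p = 0.14). Cardiac actin, Actc1, was lower by 0.55 and fast troponin T, Tnnt3, higher by 0.49, both under the fold threshold. Neb, the thin-filament ruler, went from between 275 and 336 CPM to between 2140.4 and 2956 CPM, a log2 fold change of 3.06 that was 1.45 with the offset. The list of light chains holds 5 tested light chains, of which 2 rose, and 3 tested light chain kinases, of which 1 rose, and none fell. Myl1 went from 395, 406 and 388 CPM to 1413, 1456 and 1352 CPM (log2 fold change 1.84), Myl2 rose by 2.35, and Mylpf was higher by 0.75, and by 1.29 with the offset. The kinase gene Mylk4 rose by 2.27. With the offset all 5 light chains and 1 kinase rose, and with the fractions in place none of the 8 did.

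Excitation-contraction coupling genes rose in part. Of 31 tested members 10 rose and 2 fell, with a median log2 fold change of 0.68 and of 0.87 with the offset. In the fractions 1 rose and none fell against 48 h, with a median of 0.42, and 4 rose with the summed fractions. Cacna1s, the voltage sensor of the t-tubule, went from 119, 132 and 117 CPM to 550.3, 453 and 396 CPM (log2 fold change 1.93). Ryr1, the calcium release channel, went from 225, 259 and 236 CPM to 851, 576 and 486 CPM (log2 fold change 1.41, 0.54 with the offset). Kcnj2, an inward rectifier that sets the resting potential, went from 11.7, 13.3 and 13.6 CPM to 52.8, 53.6 and 70.8 CPM, a 4.62-fold rise. Casq1, the calcium store of fast fibres, was higher by 0.82 on the log2 scale. Mss51, which encodes a mitochondrial protein of muscle and stands in this list, fell from 15.5, 14.5 and 15.0 CPM to 1.83, 1.54 and 1.87 CPM, by 3.10 with and without the offset. Its mean was 1.63 CPM in the myoblast-enriched and 23.9 ± 28.3 CPM in the myotube-enriched fraction (SD, n = 3), where the libraries differed widely. Sln, a regulator of the calcium pump, was not tested and had at most 0.0514 CPM in the 6 libraries.

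At the neuromuscular junction 5 of 17 members rose and 1 fell, with a median log2 fold change of 0.37, and with the fractions in place none rose or fell, with a median of 0.09, and with the summed fractions 3 rose. Musk, the receptor kinase that gathers acetylcholine receptors, went from 42.6, 43.7 and 39.4 CPM to 107, 103 and 114 CPM (log2 fold change 1.37, SE 0.09). It had a log2 fold change of -0.04 with the fractions in place. Among the receptor subunits, adult Chrne rose from between 0.175 and 0.257 CPM to between 0.607 and 1.01 CPM, and fetal Chrng had 501, 464 and 460.5 CPM at 48 h and 723, 523 and 364 CPM at 120 h, with overlapping groups (edgeR adjusted p = 0.45). Of the dystrophin complex, which ties the cytoskeleton to the basal lamina, 8 of 17 members rose and 1 fell, with a median of 0.94. With the offset 5 rose, with a median of 0.57, and with the fractions in place none of 16 rose or fell, with a median of 0.29. Dmd, the dystrophin gene, had 0.171, 0 and 0 CPM at 48 h and 3.08, 2.68 and 3.50 CPM at 120 h. It was at least 18.0-fold higher at 120 h, counted against 3 counts per library. Utrn, its relative, rose from between 83.2 and 91.6 CPM to between 238 and 250.2 CPM and had a log2 fold change of 0.16 with the offset.

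**Figure D3:**
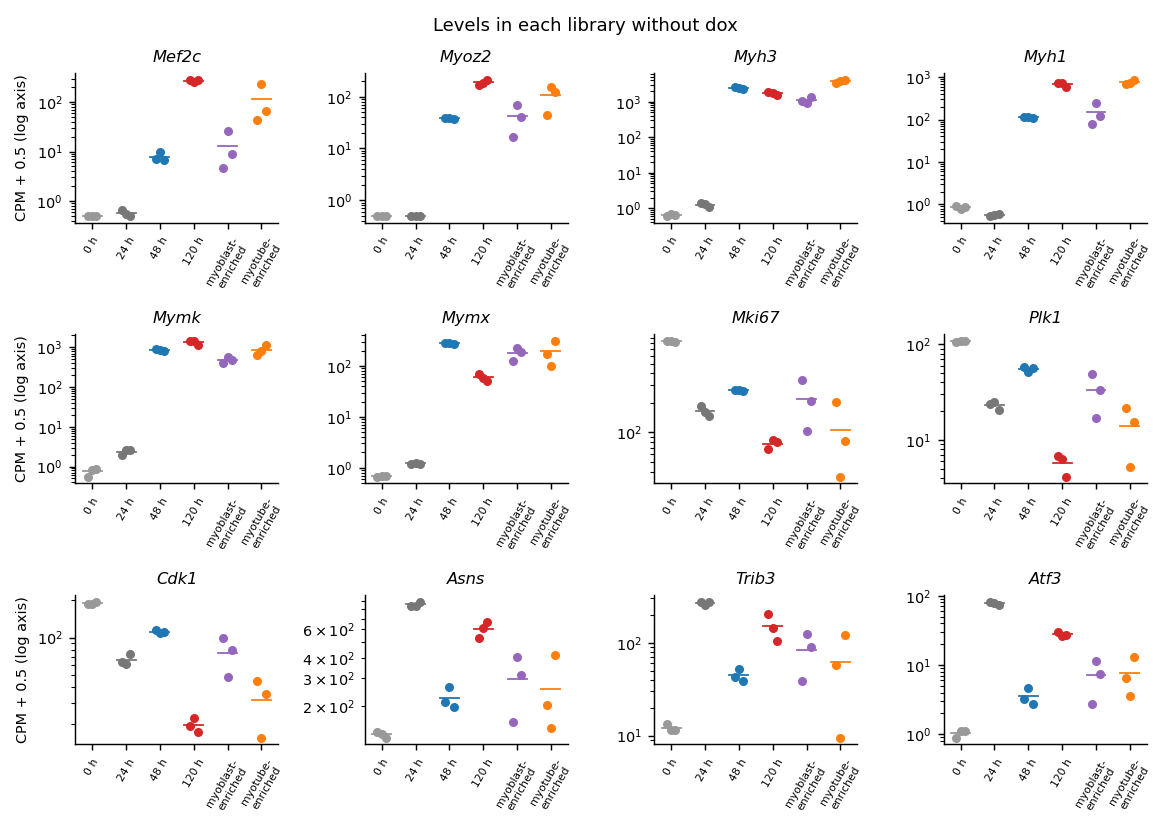
Level (CPM + 0.5, log axis) of 12 genes in each library without dox at 0, 24, 48 and 120 h and in the fractions at 120 h (points, 3 per group) with the group mean (line). Mef2c, Myoz2 and Myh1 are higher at 120 h than at 48 h in every library, Mki67, Plk1, Cdk1 and Mymx lower, and Asns, Trib3 and Atf3 are high at 24 h, low at 48 h and high again at 120 h. The 0 and 24 h libraries come from another deposited table.

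Genes of the cell cycle fell. All 32 tested mitosis genes fell, with a median log2 fold change of -2.50, and 28 of 30 S-phase genes fell and none rose, with a median of -2.01. The same numbers, 32 and 28, fell with the offset, with medians of -2.74 and -2.10. The mitosis genes have a median GC content of 46.9%. Mki67, the proliferation antigen, went from 269.9, 272 and 263 CPM to 68.3, 83.1 and 78.7 CPM (log2 fold change -1.80, SE 0.10, edgeR adjusted p = 1.0e-06). Cdk1, the mitotic kinase, went from 115, 108 and 110.5 CPM to 19.1, 22.0 and 17.0 CPM, a 5.71-fold fall. Plk1 (GRCm38 chromosome 7 from 122159439 to 122169873), a kinase of mitotic entry, went from 57.4, 50.3 and 55.8 CPM to 6.25, 5.89 and 3.64 CPM. That was the lowest log2 fold change among the mitosis genes not overlapped on the opposite strand, -3.36 (SE 0.18). Cdc6, which loads the replicative helicase, was the lowest of the corresponding S-phase genes, from between 18.8 and 22.4 CPM to between 1.27 and 2.01 CPM. E2f2 had 178, 176 and 193 CPM at 48 h and 223, 199.8 and 178 CPM at 120 h and did not pass the test (edgeR adjusted p = 0.22).

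With the fractions in place of the whole cultures the medians were -1.09 for mitosis and -1.28 for S phase, and 1 of 32 and 15 of 30 members fell. With the summed fractions 17 and 24 fell, with medians of -1.08 and -1.28. The fraction libraries differed widely in these genes, and mitosis genes not overlapped on the opposite strand lay between -1.39 and -0.14 from the 48 h mean in the 3 myoblast-enriched and between -3.15 and -1.10 in the 3 myotube-enriched libraries. In the whole cultures these medians were between -2.54 and -2.31 at 120 h. At 0 h they were between 0.96 and 0.99, and at 24 h between -0.80 and -0.77, lower than at 48 h, but the 0 and 24 h libraries are in a table of their own and lack the batch label of the later ones, so batch and time cannot be told apart there.

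Of the list of cell cycle exit, which also holds D cyclins, Cdk4, Cdk6 and Myc, 1 of 19 rose and 6 fell (2 and 7 with the offset, none and 1 with the fractions in place). The member that rose was the cyclin gene Ccnd2 (log2 fold change 1.54). The inhibitor genes Cdkn2c and Cdkn2d fell, with log2 fold changes of -1.90 and -1.84. The inhibitor Cdkn1a (p21), which myogenic factors switch on, had 1462, 1335 and 1314 CPM at 48 h and 2519, 2267 and 2140.0 CPM at 120 h, a log2 fold change of 0.76, which was 1.07 with the offset and -0.30 with the fractions in place. Cdkn1c (p57) fell from 774, 711 and 702 CPM to 83.3, 97.2 and 84.2 CPM, an 8.21-fold fall (log2 fold change -3.04, SE 0.10), and had -2.03 with the offset and -1.66 with the fractions in place. The cyclin Ccnd1 fell 3.76-fold in whole cultures and had a log2 fold change of 0.16 with the fractions in place.

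The promoter of Cdk1, at chr10:69352913-69353162 on the minus strand (RefSeq, GRCm38.p6, 250 bases before the start), is shown for the mitosis group. The capitals mark CCAAT, read as ATTGG on the other strand, and TTTGAA, letters of the cell cycle homology region.
Cdk1: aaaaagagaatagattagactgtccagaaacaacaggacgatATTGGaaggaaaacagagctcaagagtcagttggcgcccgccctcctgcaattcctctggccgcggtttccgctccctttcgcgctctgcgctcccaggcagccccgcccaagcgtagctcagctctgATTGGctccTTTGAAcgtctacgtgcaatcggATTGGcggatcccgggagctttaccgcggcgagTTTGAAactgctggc
On either strand CCAAT was found in 20 of 27 mitosis promoters (74.1%) and 17 of 24 S-phase promoters (70.8%), against 10133 of 27025 genes (37.5%). It was also found in 14 of 23 promoters of the amino acid response list (60.9%) and 5 of 9 of the light chain list (55.6%). TTTGAA was found in 9 of 27 mitosis promoters (33.3%), 3 of 24 S-phase promoters (12.5%) and 7 of 14 muscle regulator promoters, against 18.3% of all genes.

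Genes of the amino acid response, which the factor ATF4 drives when amino acids run short or translation is slowed, had the highest median of all lists. Of 24 tested members 13 rose and 2 fell, 22 had a positive log2 fold change, and the median was 1.09, or 1.12 over the 19 members not overlapped on the opposite strand. With the offset 14 rose and none fell, with a median of 1.42. Their median GC content is 54.5%. Asns (GRCm38 chromosome 6 from 7675169 to 7693254), asparagine synthetase, went from 213, 262 and 198 CPM to 528, 608 and 663 CPM (log2 fold change 1.43, SE 0.13, edgeR adjusted p = 2.0e-05). Trib3, a pseudokinase that dampens the response, went from 42.1, 52.2 and 38.6 CPM to 202, 144 and 104 CPM. Atf3, a stress-induced factor, went from 2.69, 4.11 and 2.24 CPM to 29.2, 25.9 and 26.9 CPM, a 9.13-fold rise. Ddit3 (CHOP), Sesn2 and the cystine carrier gene Slc7a11 rose by 1.56, 1.24 and 2.01 on the log2 scale. Slc7a11 varied among the 48 h libraries, from 7.89 to 31.2 CPM. The 2 members that fell were Cebpb, with a GC content of 67.2%, and Ddit4, an mTORC1 inhibitor, which went from between 146 and 164 CPM to between 40.4 and 54.5 CPM. Atf4 itself had a log2 fold change of 0.55, under the fold threshold.

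With the fractions in place of the whole cultures none of the 24 members rose or fell, and the median was 0.20. With the summed fractions 2 rose. The median of the 19 members not overlapped on the opposite strand was between 1.03 and 1.24 above the 48 h mean in the 3 whole cultures at 120 h. In the myoblast-enriched libraries it was between -0.30 and 0.66 and in the myotube-enriched libraries between -0.83 and 0.83. The corresponding median at 24 h was between 1.15 and 1.25, and at 0 h between -1.60 and -1.30. Asns had a mean of 859 CPM and Trib3 of 268 CPM at 24 h. The fractions differ from the whole cultures in handling (trypsin and straining) and in the GC shift as well as in composition, and these cannot be told apart.

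The promoters of Asns (chr6:7693210-7693459, minus strand) and Atf3 (chr1:191183334-191183583, minus strand), from RefSeq on GRCm38.p6, are shown with the letters TGATGNAA of the composite element of ATF4 and its C/EBP partners in capitals. In Atf3 they are read on the other strand.
Asns: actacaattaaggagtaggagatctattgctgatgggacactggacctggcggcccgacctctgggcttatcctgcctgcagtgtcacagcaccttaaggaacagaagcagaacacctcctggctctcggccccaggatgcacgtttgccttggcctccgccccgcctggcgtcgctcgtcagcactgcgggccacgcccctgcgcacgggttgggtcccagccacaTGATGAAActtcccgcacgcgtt
Atf3: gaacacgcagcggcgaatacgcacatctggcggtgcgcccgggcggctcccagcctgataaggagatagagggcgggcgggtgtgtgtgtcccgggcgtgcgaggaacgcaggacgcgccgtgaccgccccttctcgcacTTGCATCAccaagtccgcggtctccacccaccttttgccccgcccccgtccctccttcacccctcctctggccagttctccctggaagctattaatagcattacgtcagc
TGATGNAA was found on either strand in 7 of 23 promoters of the list (30.4%), those of Asns, Chac1, Atf3, Slc7a11, Pck2, Nupr1 and Vldlr, against 1056 of 27025 genes (3.91%).

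Glycolysis and creatine genes fell in part. Of 33 tested members 3 rose and 13 fell, with a median log2 fold change of -0.80, and 3 and 11 with the offset, with a median of -0.40. Ckb, brain creatine kinase, went from 852, 802 and 802 CPM to 65.2, 43.8 and 21.4 CPM, an 18.8-fold fall (log2 fold change -4.23, SE 0.34), and had -3.06 with the offset and -1.50 with the fractions in place. Ckm, muscle creatine kinase, went from 556, 531 and 512 CPM to 217, 153 and 92.0 CPM (log2 fold change -1.78). That value was -0.31 with the offset and -0.19 with the fractions in place, and the transcript has a GC content of 60.9%. Ldha, lactate dehydrogenase, fell from between 1561 and 1773 CPM to between 453 and 534 CPM, and by 1.51 with the offset. Hk2, a hexokinase, rose from 56.0, 75.5 and 57.9 CPM to 239.6, 195 and 213 CPM, and Slc2a4, the insulin-responsive glucose transporter, by 1.41 on the log2 scale. Of the 33 members 1 fell with the fractions in place, and the median was 0.39, and with the summed fractions 7 rose and 2 fell.

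Of 72 nuclear genes of the respiratory chain none rose and 17 fell, with a median of -0.73. These transcripts are short, with a median of 795 bases. With the offset 3 fell and the median was -0.13, and with the fractions in place none fell and the median was -0.19. Cox6a1 and Cox8a, the ubiquitous forms of 2 cytochrome oxidase subunits, fell by 2.23 and 1.51 on the log2 scale and had log2 fold changes of -0.86 and -0.17 with the offset, while the muscle forms Cox6a2 and Cox8b did not pass the test in the main fit and had 1.05 and 1.20 with the offset, where both rose. In a further pair of the list the muscle form Cox7a1 fell by 1.73 on the log2 scale, from between 2.83 and 3.11 CPM to between 0.721 and 1.10 CPM, and the ubiquitous Cox7a2 had a log2 fold change of -0.50 without a call. With the offset none of the 7 tested genes of this list fell, Cox7a1 included. Of 13 genes of mitochondrial DNA 2 rose and 2 fell (4 and 2 with the offset, 2 and none with the fractions in place, 6 and none with the summed fractions), with mt-Co1 between 9908 and 10381 CPM at 48 h and between 14811 and 21219 CPM at 120 h. Fatty acid use had 8 members up and 2 down of 35, with a median of 0.02. Cd36, the fatty acid transporter, went from between 0.463 and 0.572 CPM to 5.33, 5.89 and 9.52 CPM, a 13.7-fold rise, and Fabp3, its cytosolic carrier, from 9.37, 8.64 and 8.29 CPM to 53.6, 48.9 and 40.0 CPM. Ppargc1a, the coactivator of mitochondrial genes, rose from between 0.572 and 1.14 CPM to between 3.55 and 4.17 CPM. Cd36, Fabp3 and Ppargc1a had log2 fold changes of 3.65, 1.44 and 1.88 with the fractions in place, none with a call (edgeR adjusted p = 0.058, 0.24 and 0.15), and of 3.59, 1.38 and 1.84 with the summed fractions, all with a call (edgeR adjusted p = 0.0092, 0.030 and 0.020). Of the 35 members 1 rose with the fractions in place and 6 with the summed fractions.

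Extracellular matrix genes were called in both directions. Of 35 matrix glycoproteins and proteoglycans 8 rose and 8 fell, and of 32 collagens and their enzymes 3 rose and 6 fell, with medians of 0.12 and -0.49. With the offset 3 collagen genes rose and 3 fell. In whole cultures the shares of collagen genes are near those of all genes, 11.7% and 18.1%. In the fractions none of the collagen genes rose or fell against 48 h and their median was 0.22, and 3 matrix genes rose and none fell, with a median of 0.37. With the summed fractions 2 collagen and 7 matrix genes rose. Fn1, fibronectin, went from 2779.8, 2929 and 2750.5 CPM to 10704, 9465 and 9833 CPM (log2 fold change 1.83, SE 0.10), and had 1.18 with the offset and 0.77 with the fractions in place. Postn, periostin, rose from between 62.8 and 76.1 CPM to between 217 and 239.8 CPM, and Thbs2, thrombospondin 2, from between 17.3 and 19.0 CPM to between 65.7 and 69.2 CPM. With the summed fractions Postn had a log2 fold change of 0.36, without a call, and Thbs2 of 2.45, with a call. Fbln1, fibulin 1, fell from between 97.5 and 103 CPM to between 12.4 and 22.1 CPM, by 2.18 with the offset, but had 0.39 with the fractions in place. Col25a1, a membrane collagen that developing muscle makes, went from 0.229, 0.874 and 0.132 CPM to 25.9, 15.6 and 21.2 CPM, a 51.2-fold rise. Its log2 fold change with the summed fractions was 1.76, without a call (edgeR adjusted p = 0.071). Col1a1 and Col3a1, the abundant fibrillar chains, were lower by 0.54 (edgeR adjusted p = 0.079) and 0.57. The fall of the intermediate filament gene Vim, from between 2564 and 2735 CPM to between 605 and 697 CPM, was by 1.77 with the offset, and with the fractions in place Vim had a log2 fold change of 0.01.

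Among secreted signals Igf2, a growth factor of differentiating muscle, went from 184, 188 and 181 CPM to 737, 726 and 765 CPM (log2 fold change 2.02, SE 0.08, edgeR adjusted p = 2.9e-07), and had 1.87 with the offset and 1.32 with the fractions in place. Its binding protein gene Igfbp5 rose by 1.38. Igf1 was higher by 0.72 and had -0.12 with the offset. Smad6, the inhibitor of BMP signals, fell from between 11.4 and 13.7 CPM to between 0.747 and 1.06 CPM, and had 0.07 with the fractions in place. In all 7 of 33 growth factor genes rose and 9 fell. With the offset 3 rose and 6 fell, and with the fractions in place 3 rose and none fell. Of the muscle protein breakdown genes 6 of 18 rose and none fell, among them the ubiquitin ligase genes Trim63, from 27.6, 32.5 and 29.9 CPM to 71.0, 61.8 and 53.1 CPM, and Fbxo40, from between 0.0439 and 0.229 CPM to between 2.59 and 4.81 CPM. With the offset 6 also rose, and the median went from 0.84 to 0.41, and with the fractions in place 1 did, with a median of 0.19. Fbxo32, the other classical atrophy gene, was higher by 0.95, just under the fold threshold. Mstn, the inhibitor of muscle growth, had at most 0.0481 CPM in the 6 libraries and was not tested.

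The remaining lists are given together, and some of them moved with the offset while others did not. Of 13 antigen presentation genes 7 fell, with a median of -1.16, and their median GC content is 55.1%, with 7 members overlapped on the opposite strand. Of the 6 members not overlapped 1 fell, and their median was -0.48. With the offset 6 of the 13 fell, with a median of -0.69. The median of the 13 was 0.38 with the fractions in place. Of 20 tested genes of SRF and smooth-muscle-type contraction 9 fell and 1 rose (7 and 1 with the offset), with Myl9 going from between 79.1 and 91.7 CPM to between 8.17 and 14.5 CPM. Of 22 immediate early genes 4 rose and 7 fell (3 and 4 with the offset), and of 21 quiescence and Notch genes 1 and 6 (none and 10 with the offset). Of 30 cholesterol and fatty acid synthesis genes 1 rose and 7 fell, with the same counts with the offset. Of 11 glucose and hypoxia genes 2 rose and 5 fell (2 and 4 with the offset), a larger share than the 29.8% of all genes. Txnip, a glucose sensor gene, rose from between 61.1 and 66.1 CPM to between 223 and 241 CPM, and had log2 fold changes of 1.70 with the offset and 1.87 with the fractions in place. Bnip3, a hypoxia gene, fell from between 184 and 216 CPM to between 51.1 and 63.7 CPM, by 1.89 with the offset, and had 0.67 with the fractions in place. Of 28 lysosome and autophagy genes 2 rose and 2 fell (2 and 1 with the offset), with the protease gene Ctsl rising from between 332 and 356 CPM to between 804 and 946 CPM. In the interferon list 2 of 22 rose and 2 fell, in the chemokines and cytokines none of 18 rose and 4 fell, and among endoplasmic reticulum chaperones 1 of 16 rose and 3 fell (none and 1 with the offset). Of 19 matrix metalloproteinases and inhibitors 2 rose and 2 fell (1 and 1 with the offset). Of the 5 adhesion candidates for MyoD1 response 4 fell, among them the adhesion molecule gene Mcam, whose exons are overlapped on the opposite strand, while Cdh23 had overlapping groups. Their median GC content is 57.8%. With the offset 3 of the 5 fell, and with the fractions in place none did, with a median of 0.61. With the fractions in place 1 gene of the quiescence and Notch list fell and none of the other lists of this paragraph. In that fit 6 chemokine and cytokine, 2 interferon, 2 glucose and hypoxia, 1 antigen presentation, 1 immediate early and 1 SRF gene rose. With the summed fractions 2 quiescence and Notch genes, 1 gene of the SRF list and 1 adhesion candidate fell. There 6 chemokine and cytokine, 3 interferon, 3 glucose and hypoxia, 3 immediate early, 1 antigen presentation and 1 SRF gene rose.

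**Figure D4:**
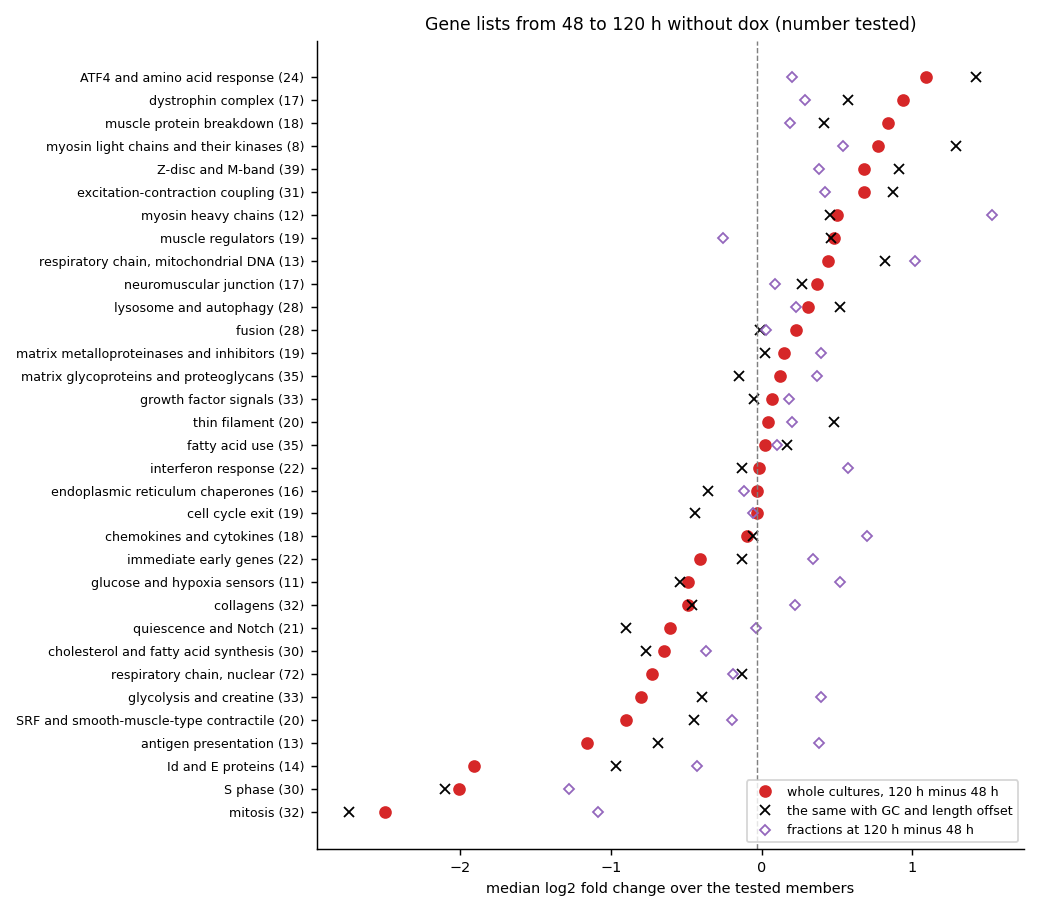
Median log2 fold change from 48 to 120 h over the tested members of each gene list (number in brackets), in whole cultures (red), with the GC and length offset (crosses) and with the fractions in place of the whole cultures (diamonds). The dashed line is the median of all genes, -0.03. ATF4 and amino acid response is highest at 1.09 and mitosis lowest at -2.50, and the lists of glycolysis, antigen presentation and muscle regulators are among those that have medians of opposite sign in whole cultures and fractions.

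Single genes at the extremes, chosen for their fold change, were as follows and give no test of a group. Among the highest, Car6, a secreted carbonic anhydrase gene, went from 0.114, 0.154 and 0.307 CPM to 39.5, 42.3 and 55.9 CPM, and Cdsn, the corneodesmosin gene, from 4.29, 4.99 and 4.39 CPM to 175, 132 and 124 CPM. Both had also been high at 24 h, at 228 and 279 CPM on average. Greb1 went from between 0.132 and 0.457 CPM to between 13.9 and 19.0 CPM, and Bglap2, of the osteocalcin genes, whose reads can be shared with its close copies, from between 1.01 and 1.59 CPM to between 21.4 and 44.4 CPM. Zbed6, which lies within another gene, was listed at 0 at 48 h and in all 6 fraction libraries and had 72.3, 71.1 and 85.9 CPM at 120 h, at least 446-fold higher, and 144 CPM on average at 120 h with dox. Slc24a2, 9930111J21Rik1 and 3425401B19Rik complete the 10 highest with Mef2c and Col25a1. Among the 10 lowest, 9 have a GC content of 59.2% or more, with Prr7 (69.0%) going from 13.7, 13.1 and 14.3 CPM to 0.144, 0.0439 and 0.0467 CPM, at least 95.0-fold lower, and with Zfp771, Ier5l, Eva1b, Tlx2, Tpgs1 and Gm47283 between 24.8- and 60.8-fold lower. These 7 genes had, with the fractions in place, log2 fold changes between -0.76 and 0.41. Gm20458 was at least 86.7-fold lower, and Clec3b, the tetranectin gene, fell 34.0-fold and had 1.09 with the fractions in place. Rmi2, a genome stability gene with a GC content of 50.3%, went from between 5.45 and 6.06 CPM to between 0.0961 and 0.187 CPM, and had a log2 fold change of -2.02 with the fractions in place.

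Genes whose exons are overlapped by another gene on the opposite strand were also counted as a class of their own. Of 4045 such genes 418 (10.3%) rose and 877 (21.7%) fell, with a median log2 fold change of -0.09, against 1196 (12.3%) and 1618 (16.6%) of 9741 others with a median of 0.00. Where the partner had been over 10 times higher at 48 h, 39 of 535 rose and 264 fell, with a median of -1.02, and over 100 times, 13 and 56 of 106, with a median of -1.30. In the fractions these medians were 0.13 and 0.04. mt-Nd6, the light-strand gene of mitochondrial DNA, which overlaps mt-Nd5, had 587, 581 and 526 CPM at 48 h and 13.8, 11.9 and 18.7 CPM at 120 h, and a mean of 809 ± 348 CPM in the myoblast-enriched and 1689 ± 410.4 CPM in the myotube-enriched fraction (SD, n = 3 each). Gm9747, opposite Irs1, had between 38.2 and 43.6 CPM at 48 h, 0 in all 3 whole cultures at 120 h and 42.4 ± 2.01 CPM in the myoblast-enriched fraction. Hist1h2ap and Hist1h2ao, replication histone genes whose near-identical copies share reads, were also listed at 0 at 120 h, at least 2249-fold and 162-fold lower. The 120 h whole cultures with dox were at 0 for all 3 of these genes as well, and whether the strand setting differed between libraries was not tested.

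The fractions show in which material the changed genes are found, in libraries the main comparison did not use. With the replicate number as a block, 322 of 14023 genes (2.30%) were higher in the myotube-enriched and 158 (1.13%) in the myoblast-enriched fraction, together 3.42%. Without the block it was 80 (0.570%) and 2 (0.0143%), and none in either direction when myoblast-enriched replicate 1 or 2 or myotube-enriched replicate 3 was left out. With the block 31 of 32 mitosis genes and 7 of 30 S-phase genes were higher in the myoblast-enriched fraction and none in the other. In the myotube-enriched fraction 28 of 39 Z-disc and M-band genes, 15 of 31 excitation-contraction genes, 10 of 20 thin-filament genes, all 5 myosin light chains, 2 of 3 light chain kinases and 6 of 12 heavy chains were higher. Without the block these were 4, 7, 1, 0, 0 and 3, and none of the mitosis genes. Myh3, which was lower by 0.46 at 120 h in whole cultures, was at 1113 ± 205 CPM in the myoblast-enriched and 3740.2 ± 365 CPM in the myotube-enriched fraction (SD, n = 3 each). Of the 39 Z-disc and M-band genes 31 were higher both at 120 h and in the myotube-enriched fraction, by the sign of the log2 fold change alone. All 32 mitosis genes were lower at 120 h and lower in the myotube-enriched fraction. Of the 24 amino acid response genes 20 were higher at 120 h but lower in the myotube-enriched fraction, none of these passing the test between fractions. Of the 1614 genes that rose at 120 h 1483 were tested between fractions. With the block 124 of these were higher in the myotube-enriched and 1 in the myoblast-enriched fraction. Of the 2495 that fell 2455 were tested, and 34 and 147 were.

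**Figure D5:**
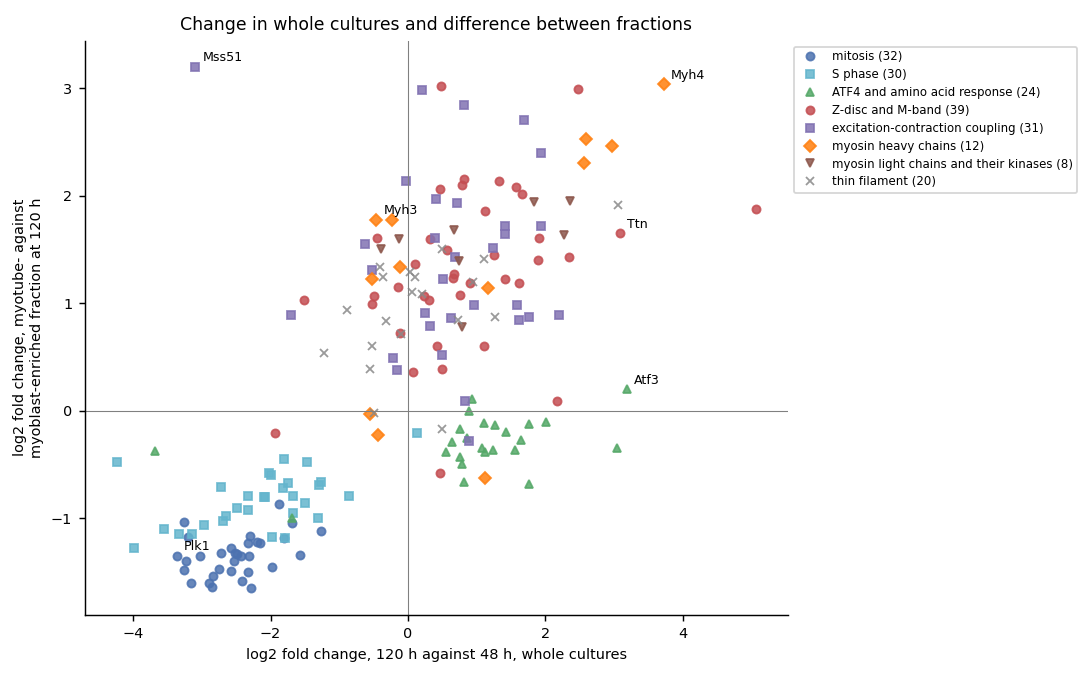
Log2 fold change from 48 to 120 h in whole cultures (horizontal axis) against the log2 fold change between the myotube- and myoblast-enriched fractions at 120 h with the replicate block (vertical axis), 1 point per gene of 8 lists. All 32 mitosis genes lie at the lower left, 31 of 39 Z-disc and M-band genes at the upper right and 20 of 24 amino acid response genes at the lower right, while Myh3 (-0.46) and Mss51 (-3.10) lie at the upper left.

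Not all of these changes were shared by the cultures with dox. The difference of the 48 to 120 h change with and without dox was tested over 14734 genes, and 1058 (7.18%) had a higher and 867 (5.88%) a lower log2 fold change with dox by more than 1. All 32 mitosis genes and 20 of 30 S-phase genes had a higher one, with median differences of 2.42 and 1.49. With the GC and length offset 32 and 22 did, with median differences of 2.33 and 1.31. The median of the mitosis genes not overlapped on the opposite strand was between -1.81 and -1.74 from the 48 h mean without dox in the 48 h libraries with dox and between -1.78 and -1.70 in those at 120 h, and these ranges overlap. Of 24 amino acid response genes 14 had a lower change with dox and none a higher one, with a median difference of -1.23 (12 genes with the offset), and Trib3 had 8.14 CPM at 48 h and 4.60 CPM at 120 h with dox. Of 39 Z-disc and M-band genes 14 had a higher change with dox and 1 a lower one. Mef2c rose in both (difference -0.16, edgeR adjusted p = 0.59), from 3.00 to 102 CPM on average with dox. Myh1 rose less with dox (difference -1.20, edgeR adjusted p = 2.5e-05), from 49.1 to 129 CPM, while Myh3 went from 939 to 3096 CPM with dox (difference 2.19, edgeR adjusted p = 3.4e-07). Of 33 glycolysis and creatine genes 14 had a higher change with dox. In the fit without the offset the difference between the change with and without dox of Myh8 and Mymx did not pass the test.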

How the data were processed

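Poly(A) RNA-seq was analysed here from tables of Salmon estimated counts per transcript, which the authors deposited with 12 libraries at 48 and 120 h, 23 of fractions and 12 at 0 and 24 h. Per the labels the genome build was mm10, and per the study's methods the counts came from the nf-core/rnaseq pipeline. Whether counting used strand is not given in the sources used here. Counts were summed per gene ID (45706 genes), rounded and joined to GENCODE vM21, in which 98.72% of the transcripts were found.

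Groups were compared with edgeR 4.0.16 (quasi-likelihood test, filterByExpr, TMM) in R 4.3.3, Benjamini-Hochberg adjusted over all genes tested. A call needed an adjusted p below 0.05 and a fold change over 2. SE was computed from the log2 fold change and F. DESeq2 1.42.0, other scalings, no filter, a replicate block, each library left out, removal of overlapped genes, and the fractions in place were tried as alternatives, and the GC and length offset and the sum of the 2 fractions per replicate number were added after seeing the data. Fits were tested on simulated data. Same-numbered fraction libraries deviated together (correlations of deviations from the group means 0.413, 0.117 and 0.189, though replicate 3 reached 0.285 with another number), so blocked values are given beside the fraction results. No 2 replicates agreed within sampling noise.

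The members and gene lists were chosen with earlier results of these data known. Named genes were chosen anchors of the lists, the highest and lowest tested member of each list without overlap on the opposite strand, the 10 highest and 10 lowest such protein-coding genes whose mean reached 5 CPM in the higher group and whose groups stood apart, and the 3 lowest overlapped genes. A few named genes are not reported here. Other list members were named after their values were seen. Lower bounds of fold changes use 3 counts per library and cover counting error only. Promoters are the 250 bases before the start in RefSeq (GRCm38.p6), present for 27025 genes.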

Additional observations from a re-analysis of the deposited data

Results flagged for a closer look

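The change from 48 to 120 h with dox differed from that without dox for 58 of the named genes, by the edgeR interaction test (adjusted p below 0.05 and a difference over 1 on the log2 scale). The values here are the log2 fold change with dox minus that without dox, and 30 were positive and 28 negative. These libraries include the 6 compared in the report. With the GC and length offset 9 of the 58 had no call, with differences of -0.78 for Myod1, -0.84 for Myog, -0.68 for Id1, 0.75 for Ttn, -0.81 for Cox8b, -0.71 for H2-K1, -0.76 for Gm47283, -1.63 for Tlx2 and 0.92 for Adam12.

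Among regulators the difference was -1.26 for Myod1, -1.09 for Myog, -1.01 for Id1, -1.41 for Id3, -1.75 for Snai2 and 4.83 for Nfatc2. Dox induces the MyoD1 transgene, and its RNA and that of the native Myod1 gene were not separated in these counts. In the sarcomere it was -1.20 for Myh1, 2.19 for Myh3, -1.42 for Myh7, 1.06 for Actc1, 1.09 for Ttn, 2.47 for Mybpc2, 1.94 for Mylk2, 1.54 for Lmod1 and 1.39 for Myot. In calcium handling it was 1.11 for Atp2a1 and 1.17 for Casq1. Metabolic and mitochondrial genes gave 5.12 for Mss51, 1.37 for Ckm, 1.63 for Ckb, -1.65 for Cox6a2, -1.36 for Cox8b, 1.50 for Ppargc1a, 1.34 for Pdk4, 5.30 for Esrrb, -4.52 for Esrrg, -1.65 for Txnip, -1.62 for Arrdc4 and 2.03 for Bnip3.

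Cell cycle genes gave 2.97 for Mki67, 2.51 for Cdc6, 1.76 for Plk1, 2.84 for Knl1 and 1.11 for Cdkn1c. For Trib3 of the amino acid response it was -2.58. Matrix, immune and breakdown genes gave 1.08 for Adam12, -1.31 for Isg15, -1.02 for H2-K1, -1.36 for H2-D1, -2.63 for Cxcl5, -1.58 for Csf1, -1.29 for Ctsl, -2.45 for Fbxo40 and 3.23 for Mcam. Smooth-muscle-type genes and markers of other cell types gave 2.00 for Myl9, -1.41 for Mylk, 5.12 for Rgs5, -1.28 for Pparg, 1.64 for Dmp1, -8.42 for Bglap and 3.14 for Itgam. Those of Rgs5, Bglap and Itgam rest on very low levels, and Bglap had no counts at 48 h without dox. Without dox the list of Rgs5, less Des, summed to at most 1.49 CPM, and the list of Itgam, less Cd14, to at most 3.42 CPM, at 48 and 120 h. Among the genes at the extremes it was -6.06 for Car6, -5.65 for Cdsn, -4.12 for Bglap2, 2.53 for Greb1, 3.03 for Rmi2, -1.50 for Gm47283 and -2.18 for Tlx2.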

How the results depend on the processing

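From 48 to 120 h, 1614 genes were higher and 2495 lower. Numbers moved by less than 1.5 times with DESeq2, RLE factors, library size only, no low-count filter or all 12 libraries. With library size only 1424 were higher and 2670 lower. Leaving out each library gave between 1515 and 1796 higher and between 2433 and 2882 lower. Without a fold threshold 4550 were higher and 4702 lower, with the overlapped genes removed 1641 were lower, and with the fractions in place 320 were higher and 161 lower, and with the fractions summed per replicate number (added after seeing the data) 607 and 369. The difference between dox and no dox without a threshold covered 2480 genes higher and 2539 lower.

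With the replicate block 1575 genes were higher and 2505 lower, and with the GC and length offset (chosen after seeing the data) and the replicate block 1063 were higher. The numbers did not pair the 48 and 120 h libraries (correlations 0.002, -0.025 and -0.028). Between fractions, 80 genes were higher in the myotube-enriched material and 2 lower without the block. These counts were 322 and 158 with the replicate block, 319 and 164 with offset and block, 41 and 1 with the offset alone, 399 and 61 with DESeq2, 322 and 43 without the low-count filter, and 1 was lower with overlapped genes removed.

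Leaving out single fraction libraries without the block gave between 0 and 206 higher and between 0 and 27 lower. edgeR called 0 genes in both directions without myoblast-enriched replicate 1 or 2 or myotube-enriched replicate 3, where 1533, 1917 and 1945 genes had an unadjusted p below 0.05. Without myoblast-enriched replicate 3 it called 1 gene higher, and without myotube-enriched replicate 2 it called 44. Without myotube-enriched replicate 1 it called 206. DESeq2 and the block were not run with libraries left out of the fractions.

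Of 158 named genes tested, none with an adjusted p below 0.05 in either fit changed direction with DESeq2, another scaling, no filter, the block or any library left out. By this measure 8 did with the offset, with log2 fold changes of 0.47 for Myod1, 0.18 for Tnnt2, -0.14 for Sdha, -0.12 for Igf1, 0.34 for Dok7, -0.09 for Mylk, 0.27 for Cebpa and -0.23 for Pdgfrb. With offset and replicate block 7 did, with 0.46 for Myod1, 0.18 for Tnnt2, -0.13 for Igf1, 0.34 for Dok7, -0.09 for Mylk, 0.26 for Cebpa and -0.23 for Pdgfrb.

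With the fractions in place 30 changed direction by this measure, and the cause was not tested. Muscle genes had -0.43 for Myog, -0.37 for Mymk, 0.01 for Myh3, -0.04 for Musk, 0.58 for Mylk2, 0.96 for Lmod1, -0.40 for Adam12, 0.57 for Asb2 and 0.83 for Cadm4. Regulators and cell cycle genes had 0.21 for Id3, 0.07 for Smad6, -0.04 for Jag1, 0.53 for Cebpa, -0.30 for Cdkn1a and 0.16 for Ccnd1. Matrix, immune and surface genes had 0.49 for Col3a1, 0.39 for Fbln1, 0.62 for H2-K1, 0.35 for Bst2, 2.00 for Cxcl5, 0.54 for Cd14, 0.61 for Cdh23 and 0.01 for Vim. The others had 0.89 for Pdk4, 0.61 for mt-Nd3, 0.67 for Bnip3, -0.10 for Edem1, 1.09 for Clec3b, 0.19 for Eva1b and 0.41 for Tlx2.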
